A study of Arabidopsis thaliana with 12 samples.

Results

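The 3 arrays that set seedlings given the calmodulin antagonist W7 against seedlings given W7 after lanthanum ions (La) were chosen by their titles from the 12 arrays of the series. They are 2-colour cDNA arrays from Arabidopsis thaliana, on which each spot is an EST clone (an expressed sequence tag, a cDNA fragment that stands for part of a transcript). On each array the W7 RNA and the La plus W7 RNA were hybridised together, and every ratio below is W7 over La plus W7, so a positive log2 ratio means more transcript without La. Of 11926 clones on the array, 9180 were kept because their spots stood above the blank spots on at least 2 arrays of every experiment. Both RNAs came from seedlings treated for 1 h, so W7 was common to both sides and the pretreatment with La was the difference between them. The other 9 arrays compared W7 with the solvent DMSO, trifluoperazine (TFP, another calmodulin antagonist) with DMSO, and W7 after La with DMSO after La. The sources used here do not give the strain, seedling age, doses or length of the pretreatment.

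Calmodulin is a small calcium sensor that binds calcium ions and then attaches to, and alters, many enzymes, pumps and transcription factors. W7, a naphthalenesulfonamide, binds calmodulin and blocks this attachment. Lanthanum ions block calcium channels of the plasma membrane and so keep external calcium out of plant cells, and the labels accordingly call the seedlings without La "W7+Ca" and those with La "W7-Ca". The comparison asked which transcripts of W7-treated seedlings differ when calcium channels have been blocked beforehand.

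The spot names are EST identifiers, and 0 of the 11926 matched the reference table of 38312 genes by identifier, so clones carry no gene name or role here. Lists of calcium, stress and photosynthesis genes, and markers that would check the seedling tissue, could therefore not be applied. Several clones can stand for 1 gene.

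On arrays 1, 2 and 3 the median raw intensity of the spots was 2659, 1193 and 1984 in the W7 channel and 1637, 1547 and 1670 in the La plus W7 channel. The 95th percentile of the blank spots was 650, 352 and 142 in the W7 channel and 704, 431 and 84.1 in the other, so array 3 stood furthest above its blanks. The log2 ratios had an SD over clones of 0.58, 0.85 and 0.43, which made array 2 the most spread and array 3 the tightest. Across the 9180 clones the arrays correlated at Pearson's r of 0.32 (arrays 1 and 2), 0.47 (1 and 3) and 0.36 (2 and 3), a description over clones, which are not independent replicates and share the probe and the dye orientation. Of all clones, 5403 (58.9%) did not keep 1 sign on the 3 arrays, 1883 (20.5%) were above 0 on all of them and 1894 (20.6%) were below 0.

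The labels give the W7 RNA in Cy3 on all 3 arrays, whereas the design text speaks of 1 dye swap in every experiment. The scanner headers name the dyes as the labels do on arrays 2 and 3, and on array 1 the dye of the La plus W7 channel is blank and the second channel carries an offset of 510 µm. Without a swap, a dye effect of a clone could be taken out only through the other experiments, as a dye term per clone shared by all arrays of the fit. The arrays with the first named RNA in Cy5 were exactly those of 1 scan set (arrays whose images share a folder). They were TFP arrays 1 and 2 and La plus W7 over La plus DMSO arrays 2 and 3. The dye term therefore cannot be told apart from a difference between that scan set and the others. With the sign of array 1, 2 or 3 turned in limma, 0 clones passed and 333, 503 and 280 had an unadjusted p under 0.05, so every result below holds for the orientation in the labels.

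Without La, 32 clones were higher (0.349% of the 9180 tested) and 8 were lower (0.0871%) at a limma adjusted p under 0.05, a total of 40 (0.436%). The higher clones had a median fitted log2 ratio of 1.72, a ratio of 3.29, and ranged from 1.27 to 2.97. The lower clones had a median of -1.90, a ratio of 0.268, and ranged from -2.90 to -1.51. Over all clones the median was -0.0022. In RNA from seedlings, fewer cells of a type and less RNA per cell cannot be told apart.

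**Figure D1:**
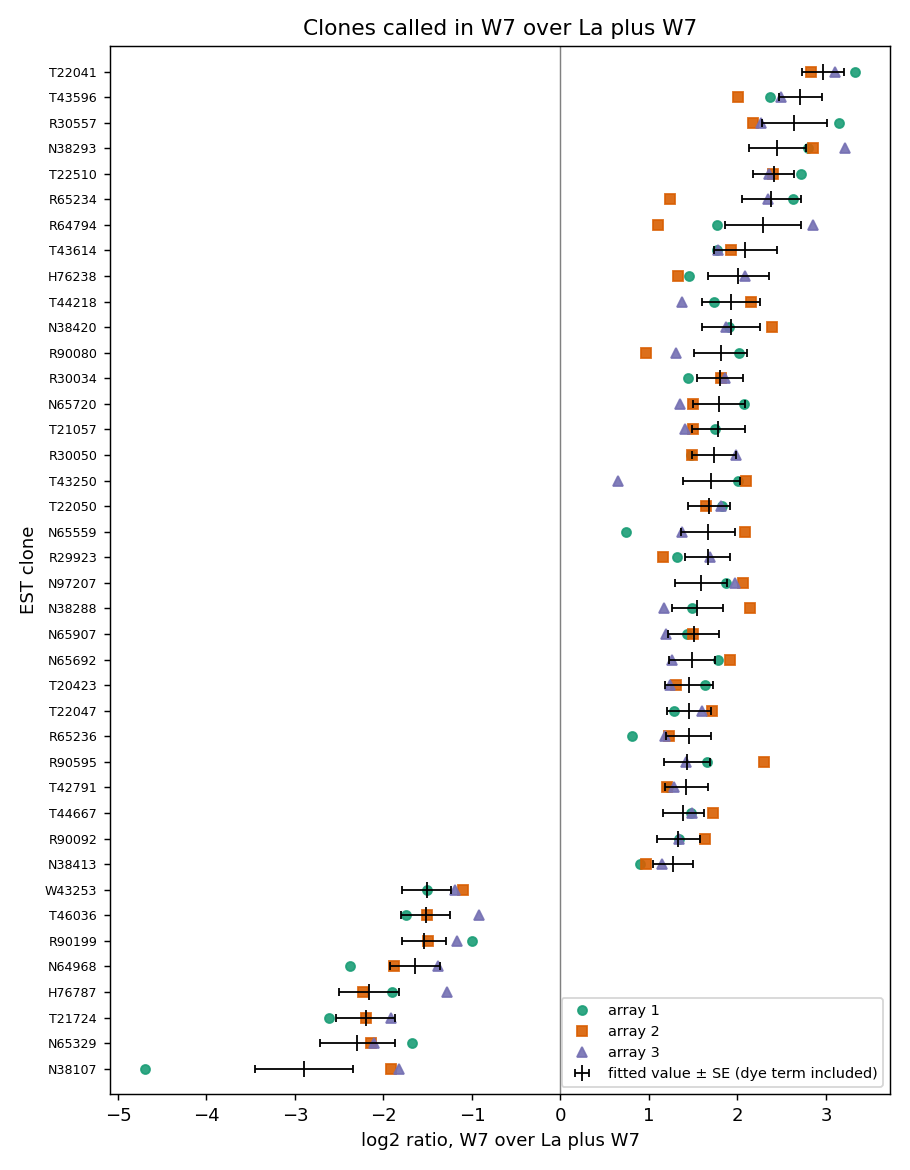
The log2 ratio of W7 over La plus W7 (horizontal axis) is shown for each of the 40 clones that passed the test (vertical axis), with 1 coloured point per array and a black bar for the fitted value ± SE. All points of the 32 higher clones lie right of 0 and all points of the 8 lower clones left of it, and array 1 of N38107 lies apart at -4.69.

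All 40 had the same sign on 3 of 3 arrays, and 27 of the 32 and 6 of the 8 were past 2-fold on every array. An unadjusted p under 0.05 was found for 456 higher clones (4.97%) and 558 lower clones (6.08%), or 11% of all in limma, so more clones were higher at the adjusted threshold and more were lower at the unadjusted one. The spread of the 40 over the 3 arrays had a median SD of 0.26, beside 0.38 for all clones. The test divides by a spread that includes these arrays, so it favours clones with a small SD. For a typical clone the 95% interval reached 0.64 log2 units to each side of the fitted value (median over all clones). The smallest fitted value that passed was 1.27 in size, so lesser differences were not called at this threshold.

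The number of calls depended on single arrays. It was 3 and 14 without arrays 1 and 2 of this comparison and 37 without array 3. It was 14 and 4 without TFP arrays 1 and 3, 80 without either W7 over DMSO array, and 8, 7 and 7 without arrays 1, 2 and 3 of La plus W7 over La plus DMSO. In each of these fits all 40 clones kept their sign, which was largely given, since they were called from these same arrays and had 1 sign on all 3. The authors' deposited ratios gave 30 higher and 8 lower clones over the same 11 arrays, and 67 and 45 once W7 over DMSO array 2 was added, so that 59.8% of the calls were higher, beside 80% here.

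The strongest difference among the higher clones was that of T22041. Its log2 ratio was 3.33, 2.83 and 3.10 on arrays 1, 2 and 3. The raw W7 intensity was 57860, 18893 and 27120, beside 3465, 3483 and 2937 for La plus W7. All 3 arrays thus held a bright W7 spot and a La plus W7 spot that was dimmer but above the blanks. The fitted log2 ratio was 2.97 (SE 0.24, limma adjusted p = 0.000221), a ratio of 7.83.

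T43596 followed, with 2.37, 2.00 and 2.49 on the 3 arrays. Its fitted log2 ratio was 2.71 (SE 0.25, limma adjusted p = 0.000545), which lies above each array's own value because the dye term of this clone was 0.43. T22510 stood at 2.71, 2.41 and 2.36, with a fitted value of 2.41 (SE 0.23, limma adjusted p = 0.00067). These 3 clones were the steadiest of the higher group: each kept an adjusted p under 0.05 in 25 of 26 alternative fits that left the array orientation as labelled.

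R30557 had 3.15, 2.18 and 2.26 on the 3 arrays and a fitted value of 2.64 (SE 0.37, limma adjusted p = 0.0143). N38293 had 2.79, 2.85 and 3.22 and a fitted value of 2.45 (SE 0.32, limma adjusted p = 0.0135). On array 2 of N38293 the La plus W7 spot was below the blank threshold, so its log2 ratio there has no firm denominator.

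R65234 and R64794 were less even. R65234 had 2.63, 1.24 and 2.34, with array 2 the lowest, and a fitted value of 2.38 (limma adjusted p = 0.0143). R64794 had 1.76, 1.101 and 2.86, with array 3 the highest, and a fitted value of 2.29 (limma adjusted p = 0.0413). The La plus W7 spot of N38293, R65234, R64794 and R90092 was below the 95th percentile of the blanks on 1 of the 3 arrays, so the ratio of these clones on that array is less certain.

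The next 8 clones in order of fitted value, T43614, H76238, T44218, N38420, R90080, R30034, N65720 and T21057, ran from 2.09 down to 1.78. T43614 was the most even of them, at 1.77, 1.93 and 1.78, and R90080 spread from 0.96 on array 2 to 2.01 on array 1. T21057 was bright in both channels, with raw W7 intensities of 55575, 35039 and 48668 beside La plus W7 intensities of 10675, 13869 and 17743. The other 17 higher clones had fitted values from 1.27 to 1.73.

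Of the lower clones, N38107 had the largest fitted value and the least even arrays. Its log2 ratio was -4.69 on array 1 and -1.91 and -1.82 on arrays 2 and 3, and the fitted value was -2.90 (SE 0.55, limma adjusted p = 0.0459). The raw intensities on array 1 were 3569 for W7 and 48146 for La plus W7. Array 1 therefore stands apart from the other 2 for this clone, though all 3 lie past 2-fold.

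N65329 had -1.68, -2.14 and -2.11, with a fitted value of -2.29 (SE 0.43, limma adjusted p = 0.0404). T21724 had -2.62, -2.19 and -1.91, with -2.20 (SE 0.33, limma adjusted p = 0.0192). H76787 had -1.90, -2.23 and -1.29, with -2.16 (SE 0.34, limma adjusted p = 0.0243), and its W7 spot was below the blank threshold on 1 array. These 3 clones were more than 4-fold lower without La in the fit, and none of their arrays came nearer to 0 than -1.29.

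The other 4 lower clones lay between -1.64 and -1.51. N64968 had -2.37, -1.88 and -1.39, W43253 had -1.51, -1.10 and -1.19, R90199 had -0.9997, -1.50 and -1.17, and T46036 had -1.74, -1.51 and -0.92. T46036 on array 3 and, narrowly, R90199 on array 1 were the only values of the 8 clones short of 2-fold.

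A log2 ratio of at least 1 on all 3 arrays was found for 59 clones (0.643%), of which 27 passed the test, and a log2 ratio of -1 or less on all 3 arrays for 32 clones (0.349%), of which 6 passed. The 32 higher clones of this group that did not pass had limma adjusted p-values of 0.0557 to 0.518, and the 26 lower ones of 0.0561 to 0.22. Ranked by the value nearest to 0 over the 3 arrays, the 2 lowest clones did not pass. R30257 had -2.35, -3.30 and -2.35 with a fitted value of -2.70 (SE 0.66, limma adjusted p = 0.106), and T88149 had -2.51, -2.88 and -2.24 with -2.47 (SE 0.62, limma adjusted p = 0.108). Their standard errors, which the fit draws from all 11 arrays, were above that of any clone that passed. On W7 over DMSO their 2 arrays lay far apart, at -1.84 and 1.19 for R30257 and at -2.08 and 0.87 for T88149.

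The clones were next set beside the W7 response itself, W7 over DMSO. That comparison shares the W7 condition, the Cy3 label of the W7 RNA on both of its arrays and the dye term with W7 over La plus W7, and the sources used here do not say whether the same RNA extracts were used. Its values are therefore set out side by side and not counted as separate support. It had 2 arrays with scanner values, arrays 1 and 3. Array 2 is known only from the authors' deposited ratios.

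For the 32 clones higher without La, W7 over DMSO passed as higher for 30, where 2.1% of all clones were called higher. Their fitted log2 ratio for W7 over DMSO had a median of 2.19, a ratio of 4.56, and ranged from 1.11 to 4.43. On arrays 1 and 3 the medians were 2.32 and 2.00, and in the deposited ratios of array 2, which did not enter the fit, the median was 2.17. The lowest value of any of the 32 clones was 1.31 on array 1, 0.87 on array 3 and 0.23 in the deposited ratios of array 2. The median fitted value of the 32 was 2.03 without array 1 and 2.51 without array 3, beside -0.05 and 0.01 over all clones. Each of these fits leaves 1 array of W7 over DMSO. With the deposited ratios 30 of the 32 passed over the same arrays, beside 195 of all 9180 clones. With array 2 added it was 32, beside 399 of all clones. The clones that missed the threshold were R64794 at 1.88 (limma adjusted p = 0.0698) and R90595 at 1.11 (limma adjusted p = 0.0749), the second of them named after its values were seen.

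T22041 had 4.57 and 4.52 on W7 over DMSO arrays 1 and 3 and 4.21 in the deposited ratios of array 2. T43596 had 3.68, 3.76 and 3.42 in the same order, and T22510 had 3.19, 2.72 and 2.53. For these 3 clones W7 alone raised the transcript on every array by more than 5-fold. The 2 groups of values differed in order for some clones: R29923 had a fitted log2 ratio of 3.52 over DMSO but 1.66 over La plus W7, whereas R30557 had 2.67 and 2.64.

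**Figure D2:**
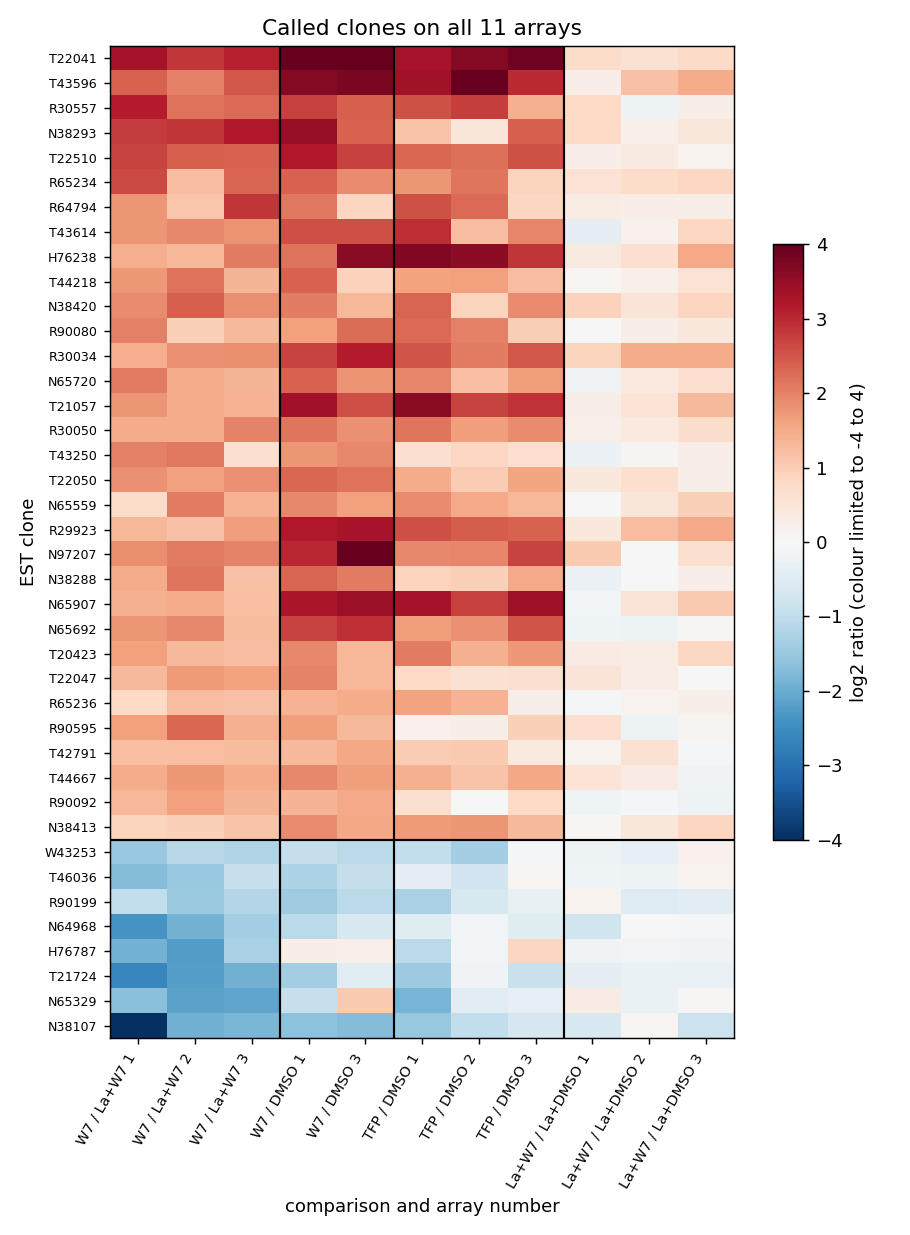
Colour shows the log2 ratio of each of the 40 clones (rows) on the 11 arrays with distinct scanner files (columns), limited to the range from -4 to 4. The 32 higher clones are mostly red on the W7 over La plus W7, W7 over DMSO and TFP over DMSO arrays and pale on the La plus W7 over La plus DMSO arrays, and the 8 lower clones are blue on the first 3 arrays and mixed on the others.

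The W7 response was also measured after La. In La plus W7 over La plus DMSO 0 of the 32 passed, as did 0% of all clones. An unadjusted p under 0.05 in limma was found for 11 of the 32 and for 220 (2.4%) of all clones. Their fitted log2 ratios had a median of 0.34, a ratio of 1.27, and ranged from -0.11 to 1.26. The medians on arrays 1, 2 and 3 were 0.27, 0.35 and 0.60, all below the lowest median on the W7 over DMSO arrays. R30034 had the highest ratio, with 0.90, 1.50 and 1.49 on the 3 arrays and a fitted value of 1.26 (SE 0.21), the only clone of the 32 past 2-fold, as were 0.251% of all clones. The La plus W7 condition is on the other side of the ratio in W7 over La plus W7, so any error common to it would enter both comparisons with opposite sign.

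T22041 stood at 0.73, 0.60 and 0.77 after La, T43596 at 0.27, 1.17 and 1.47, and T22510 at 0.28, 0.36 and 0.15. T22041 thus had a fitted W7 ratio of 21.5 over DMSO without La and 1.67 after it.

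**Figure D3:**
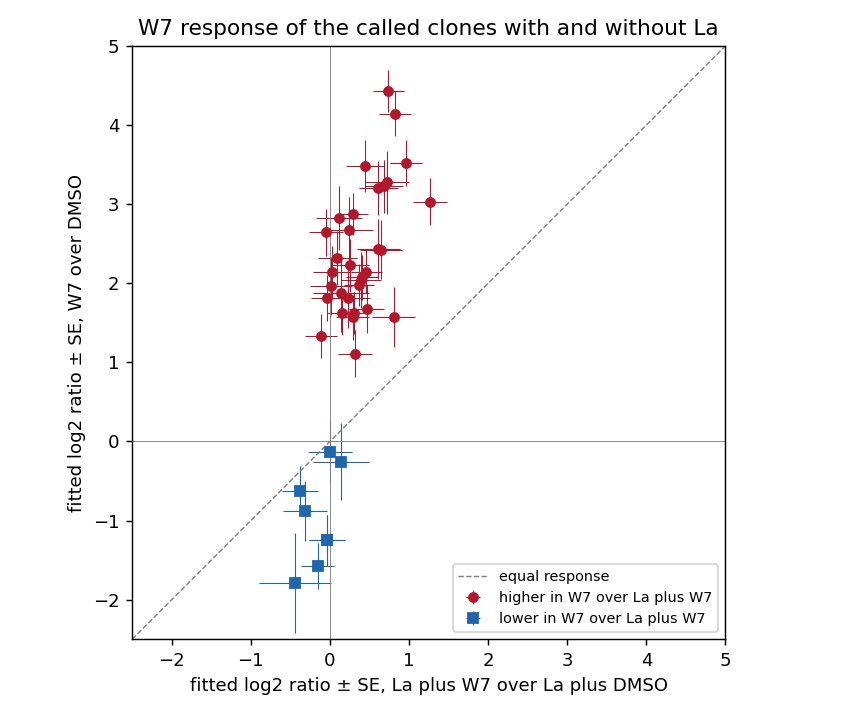
The fitted log2 ratio ± SE of W7 over DMSO (vertical axis) is plotted against that of La plus W7 over La plus DMSO (horizontal axis) for the 40 clones, with a dashed line where both are equal. All 32 higher clones (circles) lie above the line, between 1.11 and 4.43 without La and between -0.11 and 1.26 after it, and the 8 lower clones (squares, of which W43253 and T46036 overlap) lie at or below the line.

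Whether the W7 response was larger without La than after it was tested as a contrast in the same fit, from arrays other than the 3 except for the shared dye term and spread. It passed for 11 of all clones (0.12%), all of them higher without La, and 6 of these were among the 32. T22041 had a difference of 3.69 (SE 0.35, limma adjusted p = 0.00177), T43596 of 3.32 (SE 0.37, limma adjusted p = 0.00489) and N65907 of 3.03 (SE 0.43, limma adjusted p = 0.0219). N65692 followed with 2.69, T22510 with 2.58 and R29923 with 2.56. The other 26 had differences from 0.77 to 2.72 that did not pass, and the median over the 32 was 1.83 beside -0.03 over all clones.

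For N65907 the 3 W7 over La plus W7 arrays gave 1.43, 1.49 and 1.19 (fitted value 1.51, SE 0.29). That is 1.53 log2 units less than its difference of 3.03 between the W7 responses, and N65692 (1.48 beside 2.69) and R29923 (1.66 beside 2.56) also had the smaller value on these 3 arrays. N38420 was the other way, with 1.93 here and a difference of 0.77. The gap between both measures is the ratio of La plus DMSO over DMSO, which no array measured and which follows as W7 over DMSO minus the other 2 ratios. Over the 32 clones this derived value had a median of 0.14 and ranged from -1.16 for N38420 to 1.53 for N65907. The W7 over La plus W7 ratio, by which the 32 were chosen as high, enters it with a minus sign. The choice itself thus lowers the derived values. The derived value passed for 0 of all clones (0%), with 557 (6.07%) at an unadjusted p under 0.05 in limma. The count of 11 was 0, 2 and 7 without arrays 1, 2 and 3 of La plus W7 over La plus DMSO, 3 and 6 without TFP arrays 1 and 3, and 33 and 4 without W7 over DMSO arrays 1 and 3. It was 0 with a fixed block for the scan set in place of the dye term.

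TFP over DMSO shares neither RNA with the 3 arrays, only the dye term and the spread of the fit, and its arrays carried the TFP RNA in Cy5 on arrays 1 and 2 and in Cy3 on array 3. Of the 32 clones, 27 were raised by TFP, where 2.27% of all clones were called higher. The medians on arrays 1, 2 and 3 were 1.93, 1.64 and 1.62, and all 32 lay above 0 on every array, as 17.7% of all clones did. T22041 had 3.29, 3.68 and 3.90, and T43596 had 3.35, 3.94 and 3.00. The 5 clones that did not pass for TFP, named after their values were seen, were T43250, T22047, R90595, T42791 and R90092, with fitted values from 0.52 to 0.76. The largest dye term of any of the 40 clones was 0.51 in size, and 0 of all clones had a dye term that passed in limma.

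The 8 clones lower without La had a less even record elsewhere. In W7 over DMSO only R90199 passed (-1.58, SE 0.29, limma adjusted p = 0.0138, but 0.0753 without array 1 and 0.0648 without array 3), where 0.61% of all clones were called lower, and the 8 fitted values ran from -1.79 to -0.13 with a median of -1.06. On arrays 1 and 3 the medians were -1.18 and -0.80, and in the deposited ratios of array 2 the median was -1.54 with a range of -3.06 to -0.67. When the deposited ratios were fitted, 3 of the 8 passed in W7 over DMSO over the same 11 arrays, beside 0.795% of all clones, and 6 of the 8 with array 2 added, beside 2.6%. TFP over DMSO and La plus W7 over La plus DMSO passed for 0 of the 8, with median fitted values of -0.69 and -0.09, and the difference between the W7 responses passed for 0 of them, with a median of -0.89. Among all clones TFP was called lower for 0.163%, La plus W7 over La plus DMSO for 0% and the difference for 0%.

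The 8 clones did not behave alike. W43253, T46036 and R90199 had fitted W7 over DMSO log2 ratios of -1.25, -1.25 and -1.58 and derived La plus DMSO over DMSO values of 0.29, 0.31 and 0.12, so the W7 response alone was nearly as large as the value over La plus W7. H76787, N65329, N64968 and T21724 had W7 over DMSO log2 ratios of -0.13, -0.25, -0.62 and -0.88 and derived values of 2.04, 1.90, 1.40 and 1.64, and N38107 had -1.79 and 1.55. The W7 over La plus W7 ratio, by which the 8 clones were chosen as low, enters the derived value with a minus sign. The choice itself thus raises the derived values, whose median over all clones was -0.014. The grouping was made from these values and has no test, and none of the derived values passed. N65329 shows what it rests on: its W7 over DMSO log2 ratio was -0.93 on array 1 and 1.06 on array 3, and -1.84 in the deposited ratios of array 2. H76787 had 0.27, 0.19 and -1.89 in the same order. With the deposited ratios of all 12 arrays the derived values of these 5 clones were 1.13 to 1.49, and those of the other 3 were 0.20 to 0.46.

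**Figure D4:**
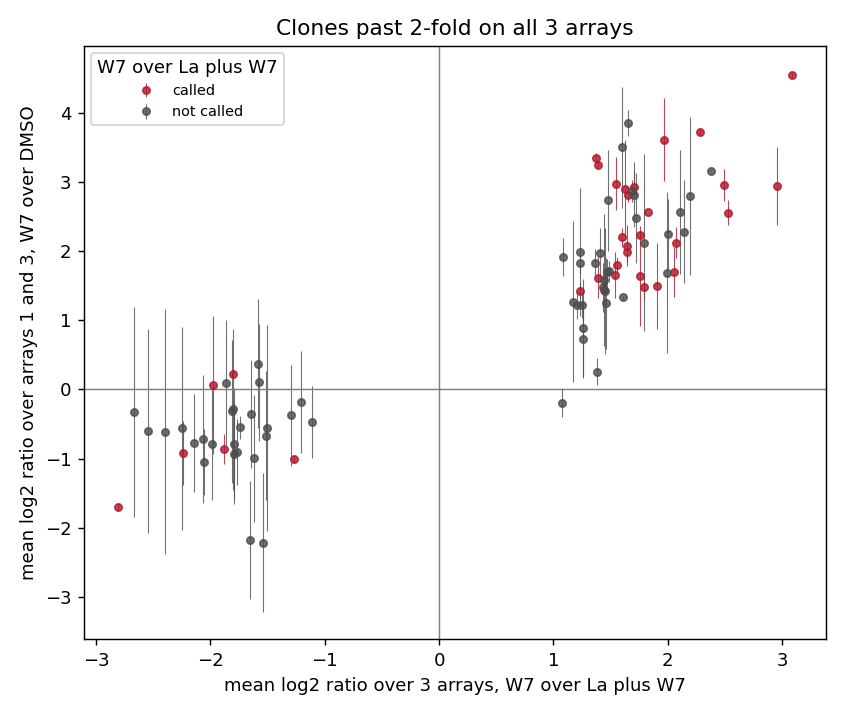
The mean log2 ratio of W7 over DMSO on arrays 1 and 3 (vertical axis, bars reaching to the value on each array) is plotted against the mean of W7 over La plus W7 on 3 arrays (horizontal axis) for the 59 clones at or above 1 and the 32 at or below -1 on all 3 arrays. The higher clones lie at the upper right with 1 exception, and many bars of the lower clones cross 0.

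The wider groups past 2-fold on every array were set beside the same comparisons. The 59 higher clones had medians of 2.14 and 1.84 on W7 over DMSO arrays 1 and 3 and of 1.91 in the deposited ratios of array 2. W7 over DMSO passed as higher for 43 of them, where 2.1% of all clones did. With 1 array of that comparison left, their median fitted value was 1.92 without array 1 and 2.22 without array 3. Over all clones it was -0.05 and 0.01 in the same fits. On the 3 TFP arrays their medians were 1.70, 1.14 and 1.58, and 54 of the 59 were above 0 on all 3, as 17.7% of all clones were. They had medians of 0.28, 0.29 and 0.42 on the La plus W7 over La plus DMSO arrays. On both W7 over DMSO arrays, 58 of the 59 were above 0 and 47 had a log2 ratio of at least 1. Of all 9180 clones, 2600 and 259 did.

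The 32 lower clones had a median of -1.46 on W7 over DMSO array 1, with 31 below 0, and of -1.29 in the deposited ratios of array 2, again with 31 below 0. On array 3 the median was 0.20 and 20 of the 32 lay above 0. Of all 9180 clones, 4459 lay below 0 on array 1 and 4879 in the deposited ratios of array 2, and 4485 lay above 0 on array 3. The fitted W7 over DMSO log2 ratio had a median of -0.61, which was -1.24 without array 3 and 0.26 without array 1. TFP array 2 also stood apart for these clones, with a median of 0.18 beside -1.07 and -0.29 on arrays 1 and 3. The derived La plus DMSO over DMSO value had a median of 1.36 with all arrays, 0.49 without W7 over DMSO array 3, 1.95 without array 1 and 1.00 with the deposited ratios of all 12 arrays. Over all clones its median was -0.014 with all arrays. The ratio by which these 32 clones were chosen enters the derived value with a minus sign, so the choice itself raises it. Whether these clones respond to La alone was not measured, and the part of W7 over DMSO array 3 in the derived value was not tested beyond these fits.

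The scan sets, taken from the image folders in the scanner headers, put arrays 1 and 2 in a set that held only this comparison, and array 3 in a set with W7 over DMSO array 3 and TFP array 3. Within the first set, without array 3, 37 clones passed, 19 higher and 18 lower, of which 20 were among the 40. With array 3 alone in its comparison, where the spread comes from the other experiments and this array is assumed to vary like them, 0 clones passed and 330 had an unadjusted p under 0.05 in limma, and the 32 and 8 clones had medians of 1.64 and -1.57 there. With the scan set as a random block the fit called 40 clones, the same 40. The correlation estimated within scan sets was -0.011, so that fit was nearly the main one and says little about the sets.

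The 40 clones lay in 21 of the 32 print blocks of the array, and 1 block held 6 of them, all higher: N38293, T22050, N38288, T20423, T22047 and R65236, named after their values were seen. The 243 clones kept in that block had median log2 ratios of 0.32, 0.37 and 0.19 on the 3 arrays, above the near-zero median of the whole array. With loess fitted within each block (print-tip loess), the 6 had fitted values of 1.25 to 2.26, and 2 of them passed. Over the whole array 17 clones passed with this normalization, all among the 40. None of the 40 was saturated on any array or spotted more than once.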

How the data were processed

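The authors deposited scanner output for each array, whose values used here are raw linear spot intensity in both channels with no normalization per the file headers, and a table of 1 linear ratio per spot and array, for which the sources used here give no normalization. The deposited ratios correlated at r = 0.988, 0.994 and 0.999 with the log2 ratios computed here for the 3 arrays. The scanner file of W7 over DMSO array 2 repeats array 1 (Spearman 0.885 with the deposited ratio of array 1 and 0.311 with that of array 2), so it was counted once and 11 of the 12 arrays were fitted, where 12 had been planned.

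Of 12288 spots, 323 blanks, 12 named N/A and 1 unnamed spot were dropped. Intensities were corrected with normexp (offset 50) and log2 ratios normalised by loess within arrays in limma 3.58.1 under R 4.3.3. A spot was kept if 1 or both channels lay above the 95th percentile of the blanks in that channel on at least 2 arrays of every experiment. Repeated spots of a clone were averaged. A limma fit over all arrays had a coefficient per experiment and a dye term per clone, with 6 residual and 6.14 prior degrees of freedom, and calls were made at an adjusted p under 0.05 (Benjamini-Hochberg, over 9180 clones). Per the labels' design text, the 3 arrays are independent biological repeats. The number of arrays limits the precision. The fit was tested on simulated data.

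Clones named were the 15 highest and up to 10 lowest called with the same sign on 3 of 3 arrays, the 3 highest and 3 lowest by their smallest value over the arrays, any called clone of opposite sign in W7 over DMSO (0 were found), and those also called for the difference between the W7 responses. This gave 28 clones. The comparison, the clone rule and the lists were chosen with earlier results of these data known. The groups past 2-fold on every array, the split of the lower clones, the print block and the fits with other W7 over DMSO arrays were chosen after the values had been seen.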

Additional observations from a re-analysis of the deposited data

Results flagged for a closer look

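In limma, the contrast of both W7 responses passed for 11 clones, each with the larger response in seedlings without La. Of these, 6 were also higher in W7 over La plus W7. Their differences on the log2 scale were 3.69 for T22041, 3.32 for T43596, 3.03 for N65907, 2.69 for N65692, 2.58 for T22510 and 2.56 for R29923.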

How the results depend on the processing

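With 3 arrays of 1 dye orientation, the number of called clones was the least stable result. Each of the 40 clones that was tested kept its sign in every alternative that left the arrays as labelled (the filter on both channels tested 36 of them). The clones were called from these same arrays and had 1 sign on all 3, so kept signs were largely given by the choice. Beside 40 calls (32 higher, 8 lower), the fit gave 308 (172 and 136) with no dye term, 79 (51 and 28) from the 3 arrays alone with no dye term, 112 (67 and 45) with the authors' deposited ratios of all 12 arrays, 227 (123 and 104) with array weights, 17 (12 and 5) with print-tip loess and 6 (6 and 0) with a trended, robust variance model. The counts with no background correction, median centring, no filter on dim clones, both channels above the blanks and the scan set as a random block were 36, 32, 30, 36 and 40. With array 3 alone in its comparison, added after the data were seen, 0 clones were called (0 and 0), beside 330 at an unadjusted p under 0.05, and without saturated spots, also added, 40 were. The deposited ratios of only the 11 fitted arrays, added likewise, gave 38 calls (30 and 8) and 11 for the difference, so the larger counts came with W7 over DMSO array 2. Leaving out 1 array in turn gave 3 to 80 calls, 3 to 55 higher and 0 to 25 lower. Where 1 array of a comparison stands alone, it is assumed to vary like the other experiments.

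The 11 clones called for the difference between the W7 responses became 52 with no dye term, 76 with the deposited ratios of all 12 arrays, 4 with median centring, 1 with a trended, robust variance model and 0 with a fixed block for the scan set (1093 at an unadjusted p under 0.05 in limma), and 0 to 33 when 1 array was left out. With a fixed scan block only differences between comparisons can be estimated, so it gives no value for W7 over La plus W7 itself and was not run there. That fit had no dye term, and it links both W7 responses only through the TFP arrays. Its count is therefore not like for like with the 11. The cause of the other shifts was not tested.

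With array 1, 2 or 3 turned in sign, 0 clones were called as higher, as lower and for the difference. Among the 28 named clones, the log2 ratio then changed sign for N38107 (0.66) and R90080 (-0.0045) with array 1 turned and for R64794 (-0.15) with array 3 turned. Of all 40 called clones, 38, 37 and 39 kept their sign with array 1, 2 and 3 turned. For the named clones, 471 of 809 alternative values kept their sign and side of the threshold, 323 lost the call, 12 gained it and 3 changed sign.

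With the replicate number as a block, 6 clones were called (5 higher, 1 lower), and 2 for the difference. Same-numbered arrays of different experiments deviated together at r of -0.57 to 0.48 over 8 pairs, 2 of them over 0.1, so no steady pairing by number was seen. With so few arrays per experiment their deviations are tied to each other, so these values cannot exclude a pairing. None of the named clones was spotted more than once. For the 10 kept clones that were spotted repeatedly, the spots of an array differed by a median of 0.39 on the log2 scale. Of the 30 pairs of spots, 9 differed by more than 1, and the widest gap was 3.05, for T21620 on array 2.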
